A study of Rattus norvegicus with 2 samples.

Results

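*Lrrc17* (ENSRNOG00000012817), *Htra3* (ENSRNOG00000008182) and *Cd248* (ENSRNOG00000020197) are 3 of the 25399 genes counted in single cells of the neonatal rat heart. They were chosen by their measured values, as genes whose summed and depth-scaled counts in the fibroblast cluster were lower in the lipopolysaccharide (LPS) library than in the control library, so these ratios are a description and carry no test. The cells came from Sprague-Dawley rats of 1 to 3 days, male and female pooled, 24 rats in all, with no genetic change described. They were enriched on a Percoll gradient for intrinsic cardiac adrenergic (ICA) cells, cultured, and given saline (control) or LPS at 1 µg/mL for 2 h. Each condition gave 1 library of the 10X Genomics 3′ kind (v2), so there are no replicates and a difference between the libraries cannot be told apart from a difference in their handling. Both libraries are labelled as ICA cells, yet 57.2% of the control cells and 55.4% of the LPS cells lay in cluster 0, which the authors named Fibroblast.

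All 3 genes encode proteins that work outside the cell or at its surface. Lrrc17 is a secreted protein with leucine-rich repeats, known in bone for restraining the formation of osteoclasts by RANKL. Htra3 is a secreted serine protease of the HtrA family, known for cleaving matrix proteoglycans and for dampening signals of the TGF-β family. Cd248, also called endosialin, is a transmembrane glycoprotein with a C-type lectin domain on fibroblasts and on the pericytes of small vessels, and it binds collagens and fibronectin. LPS is a component of the outer membrane of Gram-negative bacteria and is sensed by Toll-like receptor 4, whose signal through NF-κB switches on cytokine and chemokine genes.

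The sequences just upstream of the annotated starts are shown because the genes were lower together, with known short motifs in capitals. They are the 250 bases before the start in the RefSeq promoter table on the GRCr8 build, read 5′ to 3′ on the gene's strand. *Lrrc17* lies on the minus strand (chr4:14424049-14424298) and *Htra3* on the plus strand (chr14:79293291-79293540). *Cd248* is not shown.
Lrrc17: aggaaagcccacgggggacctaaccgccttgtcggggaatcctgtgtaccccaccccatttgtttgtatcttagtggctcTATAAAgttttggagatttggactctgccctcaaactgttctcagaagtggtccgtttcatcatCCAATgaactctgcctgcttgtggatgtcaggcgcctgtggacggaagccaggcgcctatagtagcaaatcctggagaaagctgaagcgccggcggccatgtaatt
Htra3: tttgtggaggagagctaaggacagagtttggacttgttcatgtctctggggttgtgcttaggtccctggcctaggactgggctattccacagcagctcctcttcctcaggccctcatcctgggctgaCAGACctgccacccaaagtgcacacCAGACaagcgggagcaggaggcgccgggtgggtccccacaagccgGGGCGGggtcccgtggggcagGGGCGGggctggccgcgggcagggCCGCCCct
The capitals in *Lrrc17* mark TATAAA at -170 to -165 and CCAAT at -106 to -102, counted from the base before the start as -1. The capitals in *Htra3* mark CAGAC, a half-site of SMAD proteins, at -123 to -119 and -98 to -94, and GC boxes (GGGCGG or its reverse complement) at -53 to -48, -32 to -27 and -8 to -3. Both strands were searched, and among 33469 RefSeq promoters 12.9% held TATAAA, 34.0% CCAAT, 42.9% CAGAC and 30.5% GGGCGG. Neither window held TGANTCA, the AP-1 motif, or the κB motif, which were in 6.34% and 6.33% of all promoters. The GC content was 52.4% for *Lrrc17* and 66% for *Htra3*, against a median of 51.2%. These matches are letters in a window and say nothing of binding.

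The level of a gene in a cluster is its unique molecular identifiers (UMIs) summed over the cells, per 1000000 UMIs of that cluster and library (CPM). The control library held 11531 cells and 152624585 UMIs (median 12479 per cell), and the LPS library 12689 cells and 127580475 UMIs (median 9432). The libraries shared 194 barcodes, 1.68% of those in control and 1.53% of those in LPS. Intervals are 95% and cover counting error only. Free RNA in the droplets can place UMIs of a gene in cells that do not express it. Cluster 0 held 6600 control and 7030 LPS cells with median depths of 12968 and 9822 UMIs, and all 8 fibroblast markers were detected in it, with a summed level of 11033 CPM in control and 9998 CPM in LPS. The 6 macrophage markers summed to 9.34 and 6.62 CPM there, the 4 detected endothelial markers to 70.5 and 50.6 CPM, and the 6 mural markers to 229 and 153 CPM. The part of these differences in the results below was not tested. The 5 LPS response genes were all higher in the LPS cells of cluster 0, from 6.54-fold for *Il6* to 16.9-fold for the chemokine gene *Ccl2*, with 9.79-fold for *Nfkbia*, the inhibitor of NF-κB.

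In the fibroblasts of cluster 0, all 3 genes had fewer UMIs in the LPS library than in the control library, and *Lrrc17* differed most. *Lrrc17* had 13708 UMIs in control and 1812 in LPS, which is 151 CPM (149 to 154) and 24.6 CPM (23.4 to 25.7). The LPS level was 6.17-fold lower (5.87 to 6.48), a log2 ratio of -2.62. Before scaling for depth, which was greater in control, the mean fibroblast held 2.08 *Lrrc17* UMIs in control and 0.258 in LPS.

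*Htra3*, the protease, had 6562 UMIs in control and 1445 in LPS. Its level was 72.5 CPM (70.8 to 74.3) in control and 19.6 CPM (18.6 to 20.6) in LPS, 3.70-fold lower (3.50 to 3.92; log2 ratio -1.89). *Cd248*, the surface receptor, had 11589 and 3172 UMIs, or 128 CPM (126 to 130) and 43.0 CPM (41.5 to 44.5), and was 2.98-fold lower (2.86 to 3.10; log2 ratio -1.57). The intervals of the 3 fold differences did not overlap each other. Over all cells of a library, clusters ignored, the ratios of LPS to control were 0.172 for *Lrrc17*, 0.279 for *Htra3* and 0.352 for *Cd248*.

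Of the 12247 genes with at least 50 UMIs in cluster 0, 1103 were lower by 2-fold or more in LPS (9.01%) and 420 were higher by as much (3.43%), with a median log2 ratio of -0.13. All 3 genes were among those lower, as their choice requires. From the lowest log2 ratio among these 12247 genes, *Lrrc17* was number 54, *Htra3* 207 and *Cd248* 376. Ranked in the same way among the 8635 genes with at least 500 UMIs, *Lrrc17* was number 19, *Htra3* 61 and *Cd248* 118. The neighbours of *Lrrc17* in that order were *Apoc4* (-2.65) and *Pik3ip1* (-2.62), those of *Htra3* were *Lmcd1* and *Gli2* (both -1.89), and those of *Cd248* were *Ednra* (-1.58) and *Map7d2* (-1.57). The 10 lowest ran from *Car3*, a carbonic anhydrase (-3.73), through *Lypd1*, *Fam180a*, *Medag*, *Wdr86*, *Akr1cl*, *Sned1*, LOC100134871 and *Tekt3* to *Cavin2*, a protein of caveolae (-2.86). Among these, only LOC100134871 had opposite signs in cluster 0 (-2.92) and in the cycling fibroblasts of cluster 1 (2.92). The rest of the 10 had the same sign in both, as did *Lrrc17*, *Htra3* and *Cd248*.

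**Figure D1:**
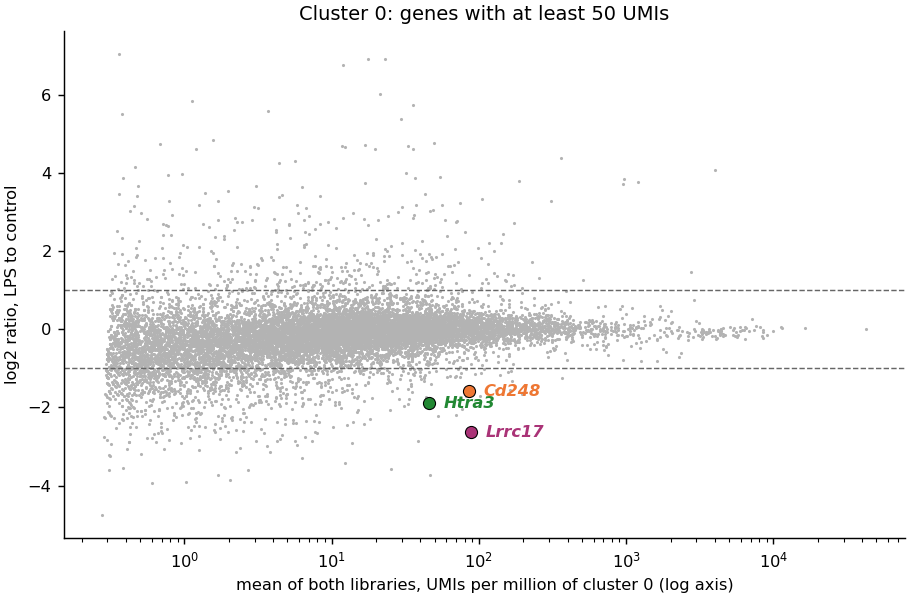
Each grey point is 1 of the 12247 genes with at least 50 UMIs in cluster 0, with the mean CPM of both libraries on a log horizontal axis and the log2 ratio of LPS to control on the vertical axis, and dashed lines mark a 2-fold difference. The coloured points are *Lrrc17* at -2.62, *Htra3* at -1.89 and *Cd248* at -1.57, all under the lower line.

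The same UMIs were then counted cell by cell, which is another view of the difference the genes were chosen for and not a separate sighting. For an equal depth, 3000 UMIs were drawn from every cell, and 79 LPS cells of all clusters, but no control cell, were too shallow for it. In cluster 0 an *Lrrc17* UMI was then found in 34.7% of control cells (33.6 to 35.9) and 7.02% of LPS cells (6.43 to 7.64). An *Htra3* UMI was found in 20.05% (19.1 to 21.0) and 6.06% (5.52 to 6.65), and a *Cd248* UMI in 29.6% (28.5 to 30.8) and 10.9% (10.2 to 11.7). Without thinning the shares were 80.2% and 20.03% for *Lrrc17*, 59.0% and 17.9% for *Htra3*, and 73.7% and 31.4% for *Cd248*.

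Macrophages, the cells of cluster 6, served as a comparison outside the fibroblasts, at median depths of 8846 and 6900 UMIs. Whether they express the 3 genes or hold them as free RNA was not tested. Of the thinned macrophages, 7.12% in control (4.40 to 10.8) and 2.07% in LPS (0.763 to 4.45) held *Lrrc17*. The shares were 8.54% and 1.38% for *Htra3*, and 9.96% and 2.07% for *Cd248*. In each library the fibroblasts of cluster 0 lay above the macrophages for all 3 genes, and the macrophage shares were themselves lower in LPS.

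**Figure D2:**
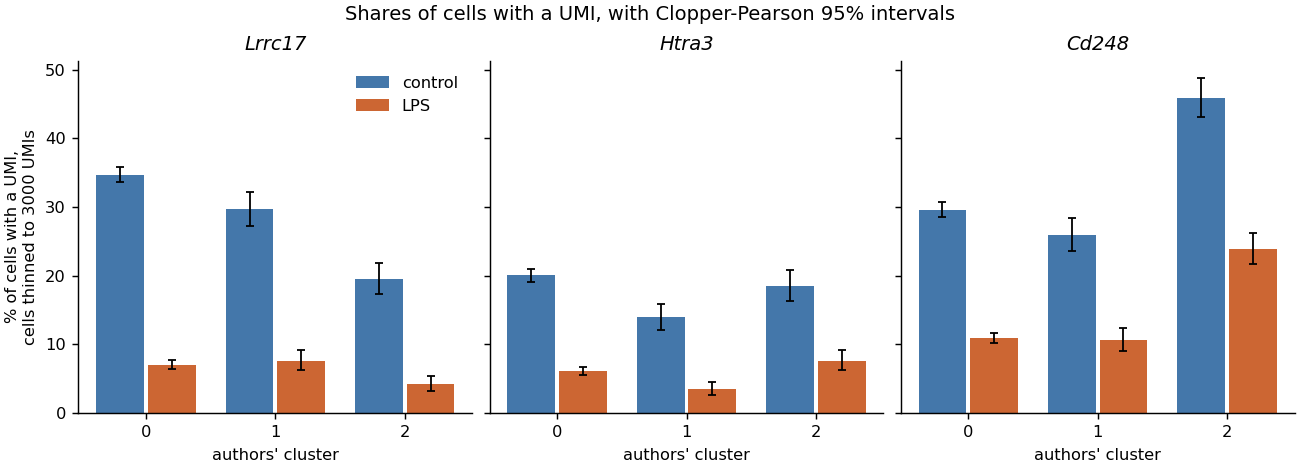
Bars give the percent of cells of clusters 0, 1 and 2 with at least 1 UMI of each gene after thinning to 3000 UMIs per cell, for control and LPS, with Clopper-Pearson 95% intervals. In cluster 0 *Lrrc17* stood at 34.7% and 7.02%, and the highest bar is *Cd248* in the control cells of cluster 2, at 46.0%.

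Fibroblasts with several UMIs, counted in the same thinned cells, were rarer in LPS. Of the thinned control fibroblasts 1.61% held 3 or more *Lrrc17* UMIs, against 0.0427% of the LPS fibroblasts, and the mean per cell was 0.454 and 0.0765. Among cells that held any *Lrrc17*, the mean was 1.31 UMIs in control and 1.09 in LPS. For *Htra3* the mean over all cells was 0.231 and 0.0629 UMIs, and for *Cd248* 0.372 and 0.123. Cells with none of the 3 genes made up 36.3% of the control and 78.0% of the LPS fibroblasts. All 3 were seen together in 127 control cells (1.92%) and 3 LPS cells (0.0427%). Lower shares of the single genes by themselves make such cells rarer, so no separate group of cells is read from these counts.

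Within the control fibroblasts, the share of cells with one of the genes was compared between cells with and without another. *Htra3* had a UMI in 19.5% (17.9 to 21.2) of the cells with *Lrrc17* and in 20.3% (19.1 to 21.6) of those without. *Cd248* was seen in 27.6% (25.8 to 29.5) of the cells with *Lrrc17* and 30.7% (29.4 to 32.1) of those without, and in 31.4% (28.9 to 34.0) of the cells with *Htra3* against 29.2% (28.0 to 30.4). In LPS, *Htra3* was seen in 8.32% (6.03 to 11.1) of the cells with *Lrrc17* and 5.89% (5.34 to 6.49) of those without. Each of these pairs of intervals overlapped, at a depth at which most cells gave no UMI of a gene. For *Cd248* in control cells with and without *Lrrc17* the overlap was narrow, from 29.4 to 29.5%. Overlap of separate intervals does not show that the shares were equal, and the differences between the shares were not tested.

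The fibroblasts of cluster 0, the largest cluster, held 72.7% of the *Lrrc17* UMIs of the control library and 66.9% of those of the LPS library, 67.8% and 64.1% for *Htra3*, and 65.0% and 60.5% for *Cd248*. Over all genes, cluster 0 held 59.3% of the UMIs in control and 57.8% in LPS. The remaining cells fell into 10 further clusters. The authors named clusters 1 and 7 Fibroblast, 3 ICA and Cardiomyocyte, 4 and 5 Endothelial, and 6 Macrophages, and left clusters 2 and 8 to 10 without a name. Cluster 1 was led by the mitotic genes *Top2a* and *Cenpf*, and cluster 7 by the interferon genes *Mx1* and *Ifit3*. Cluster 2 is called mural-like here, since the pericyte genes *Rgs5*, *Kcnj8* and *Abcc9* led it. Cluster 8 is called mesothelial-like, since *Msln* was among its leading genes and the summed level of mesothelial markers was high in it. The 4 markers, 3 of them detected, summed there to 503 CPM in control and 529 CPM in LPS. In cluster 0 they summed to 23.0 and 17.4 CPM. Most of the sum in cluster 8 came from its highest single marker, at 431 CPM in control and 466 CPM in LPS. Clusters 9 and 10 are given by number.

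In clusters 0 to 9 the ratio of LPS to control was 0.5 or less for each of the 3 genes, and every interval lay under 1. The ratios ran from 0.0879 (cluster 3) to 0.243 (cluster 1) for *Lrrc17*, from 0.116 (cluster 6) to 0.498 (cluster 8) for *Htra3*, and from 0.223 (cluster 5) to 0.449 (cluster 2) for *Cd248*. These classes include some where a gene was abundant and some where it was scarce. Free RNA from the fibroblasts can place UMIs in the latter, and its part there was not tested. The clusters are therefore not separate sightings of the difference. By the count used for all genes (0.5 UMI added, at least 50 UMIs, 2-fold or more lower), 3 of 3 were lower in clusters 1 to 7, where the share of all genes was 4.99% in cluster 1, 4.17% in cluster 2, 1.67% in cluster 3, 4.02% in cluster 4, 4.41% in cluster 5, 12.1% in cluster 6 and 3.37% in cluster 7. In cluster 8 it was 2 of 3, with *Htra3* just short at a log2 ratio of -0.997, against 1.52% of all genes. In cluster 9 it was 2 of 2, since *Htra3* had 39 UMIs, against 2.57%. The genes were chosen on this contrast, so nothing is read from these shares.

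**Figure D3:**
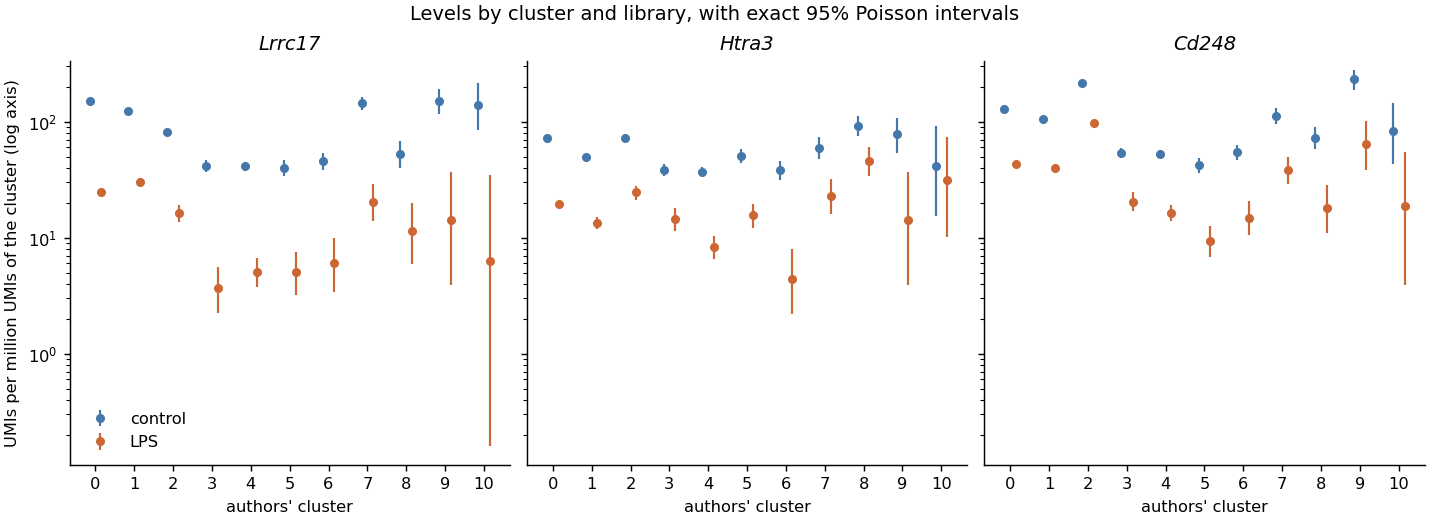
Each panel shows 1 gene, with the authors' clusters 0 to 10 on the horizontal axis and CPM on a log vertical axis, for control and LPS, with exact 95% Poisson intervals. The LPS point lies under the control point in every cluster, from 151 to 24.6 CPM for *Lrrc17* in cluster 0, and the intervals are widest in cluster 10, the smallest.

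*Lrrc17* was highest in control in the fibroblasts and in the small clusters 9 and 10. In control cluster 0 was at 151 CPM, followed by cluster 9 at 151 CPM, the interferon fibroblasts of cluster 7 at 144 CPM, then cluster 10 at 139 CPM and the cycling fibroblasts of cluster 1 at 124 CPM, and the intervals of the ratio between neighbours in this order included 1. The mural-like cells of cluster 2 followed at 81.0 CPM and the mesothelial-like cells of cluster 8 at 52.2 CPM, each below its forerunner beyond counting error. Clusters 6, 3, 4 and 5 lay between 40.0 and 45.6 CPM and could not be separated from their neighbours. In LPS cluster 1 stood first at 30.1 CPM (27.7 to 32.6), above cluster 0 at 24.6 CPM, with a ratio of 1.22 (1.12 to 1.34), and no later neighbours could be separated, whereas in control cluster 1 had been at 81.8% (78.6 to 85.1) of cluster 0. The ratio of LPS to control in cluster 1, 0.243 (0.222 to 0.265), accordingly did not overlap that of cluster 0, 0.162 (0.154 to 0.170). In the mural-like cells *Lrrc17* was at 16.2 CPM in LPS, a ratio of 0.200 (0.165 to 0.240). Its log2 ratio there was the lowest of the 3635 genes with at least 500 UMIs, and number 15 of the 8930 with at least 50. The same held in cluster 4 among 4510 genes with at least 500 UMIs, and in cluster 9 among 1674 with at least 50. As *Lrrc17* was chosen for this contrast in cluster 0, nothing is read from these ranks. In cluster 10 there were 20 control UMIs and 1 LPS UMI, a ratio of 0.0451 (0.00109 to 0.282).

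*Htra3*, the secreted protease, was spread more evenly over the classes. In control it stood at 91.8 CPM (74.8 to 111) in the mesothelial-like cells, 77.8 CPM in cluster 9, 72.6 CPM in the mural-like cells, 72.5 CPM in cluster 0 and 59.6 CPM in cluster 7, then at 50.8 CPM in the endothelial cells of cluster 5, 49.3 CPM in cluster 1, 41.7 CPM in cluster 10 and 36.9 to 38.4 CPM in clusters 3, 6 and 4. No neighbours in this order differed beyond counting error, but clusters further apart did. In control, cluster 1 was at 67.9% (63.8 to 72.3) of cluster 0 and cluster 4 at 50.9% (46.0 to 56.3). In LPS the mesothelial-like cells were again first, at 45.7 CPM (33.7 to 60.6), with 48 UMIs in 81 cells. Their level was 127% (103 to 154) of that of cluster 0 in control and 233% (171 to 311) in LPS. The ratio of LPS to control in these cells, 0.498 (0.346 to 0.709), lay above that of cluster 0, 0.270 (0.255 to 0.286). In LPS only cluster 1 (13.5 CPM) over cluster 4 (8.32 CPM) had a neighbour ratio that excluded 1. The lowest LPS level was in the macrophages, 4.43 CPM (2.21 to 7.92), from 38.2 CPM (31.7 to 45.7) in control.

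*Cd248*, the endosialin gene, was highest in the mural-like cells and in cluster 9. In control these stood at 217 CPM (207 to 226) and 231 CPM (189 to 280), and cluster 2 was at 169% (161 to 177) of the level of cluster 0. Clusters 0, 7 and 1 followed at 128, 112 and 105 CPM, then clusters 10 and 8 at 83.4 and 72.9 CPM, and clusters 6, 3 and 4 at 52.9 to 54.3 CPM, with cluster 5 last at 42.4 CPM. Between neighbours in this order the ratio excluded 1 for cluster 2 over 0, cluster 8 over 6 and cluster 4 over 5. In LPS it did so for cluster 7 (38.2 CPM) over cluster 3 (20.4 CPM) alone. In LPS the mural-like cells held 97.3 CPM (90.7 to 104), or 226% (209 to 244) of cluster 0, and their thinned share of cells with a *Cd248* UMI was 46.0% (43.1 to 48.8) in control and 23.9% (21.7 to 26.2) in LPS. The ratio of LPS to control in cluster 2, 0.449 (0.413 to 0.487), did not overlap that of cluster 0, 0.336 (0.323 to 0.349). The 6 mural markers in cluster 2 summed to 1221 CPM in control and 975 CPM in LPS. Cluster 9, where mitochondrial genes and *Myh6* led, held only 66 control and 58 LPS cells, with 104 and 18 *Cd248* UMIs. In control, 8 fibroblast markers stood there at 71.0 to 183% of their own levels in cluster 0 (median 133%). That range held *Cd248* at 180%, *Htra3* at 107% and *Lrrc17* at 99.8%.

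Outside the fibroblast and mural-like clusters, the levels were set beside those of 8 fibroblast markers, each as a percent of its own level in cluster 0. In the control library these markers stood at 18.6 to 41.9% in cluster 3, 19.0 to 33.2% in cluster 4, 21.3 to 33.2% in cluster 5 and 28.0 to 42.6% in the macrophages of cluster 6. *Lrrc17* lay within the marker range in control, at 27.4%, 27.2%, 26.4% and 30.1% in the same order. In LPS its 4 values, 14.9 to 24.6%, had intervals that reached into the marker range. The lowest, in cluster 3, was 14.9% (9.05 to 23.0) on 20 UMIs, under all 8 markers, which stood at 18.3 to 48.0%. The ratio of LPS to control of *Lrrc17* in cluster 3 was 0.0879 (0.0529 to 0.138). That interval did not overlap the one of cluster 0, 0.154 to 0.170. By their intervals alone, the levels of *Lrrc17* were not separated from the marker range in these clusters.

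*Htra3* lay above all 8 markers in control, at 53.0% (46.8 to 59.8) in cluster 3, 50.9% (46.0 to 56.3) in cluster 4, 70.1% (60.9 to 80.3) in cluster 5 and 52.7% (43.6 to 63.1) in the macrophages. In LPS it stood above them in clusters 3, 4 and 5, at 73.6%, 42.5% and 79.6%, but not in the macrophages, at 22.6% (11.3 to 40.5). *Cd248* lay above the markers beyond its interval in 1 of these 4 clusters, cluster 4, at 41.3% (38.0 to 44.8) in control and 38.0% (32.2 to 44.5) in LPS. The levels of *Htra3* in the mural-like and mesothelial-like cells, and of *Cd248* in the mural-like cells, were not below that of cluster 0, and the part of their free RNA in these values was not tested.

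**Figure D4:**
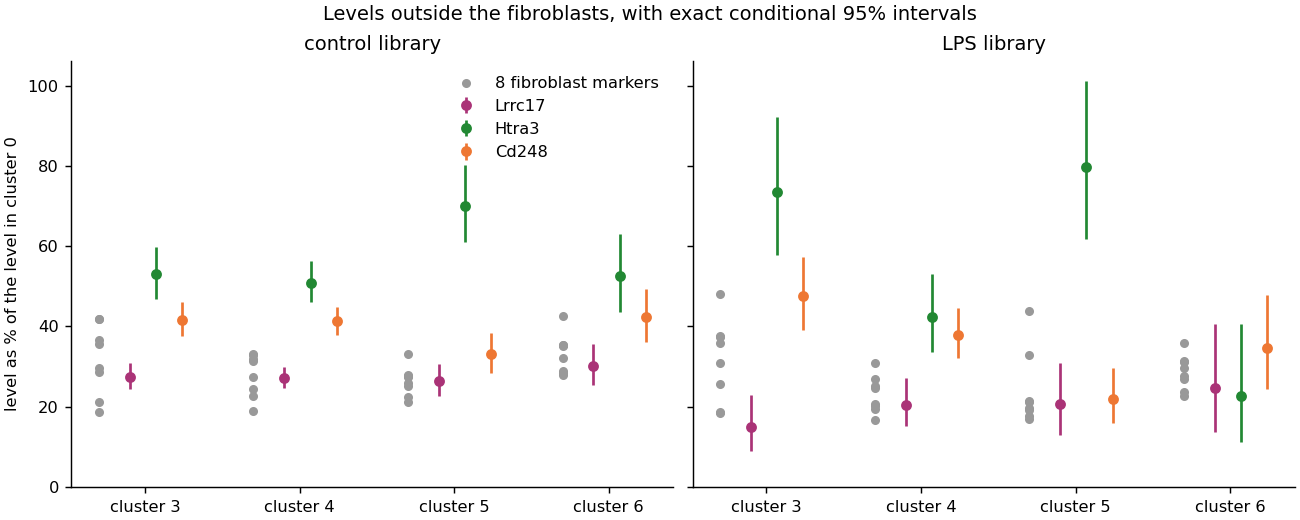
For clusters 3 to 6 the vertical axis gives each level as a percent of the same gene's level in cluster 0, in the control (left) and LPS (right) library, with grey points for 8 fibroblast markers and coloured points with exact conditional 95% intervals for the 3 genes. *Htra3* stands above the grey points in control, from 50.9% to 70.1%, whereas *Lrrc17* lies among them, from 26.4% to 30.1%.

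Related genes were described by short lists, to be read beside all genes of cluster 0, of which 9.01% were lower and 3.43% higher by 2-fold or more. The HtrA family did not move as a block in cluster 0: 2 of its 4 members were lower by 2-fold or more and none was higher. The median log2 ratio was -0.56, against -0.13 over all genes. *Htra3*, chosen for its low ratio, is among the lower members and enters this median. *Htra1*, the other secreted family member known for matrix cleavage, was at 295 CPM in control and 293 CPM in LPS, a ratio of 0.992 (0.974 to 1.01). *Htra2*, the mitochondrial member, was at 51.2 and 62.4 CPM (ratio 1.22, 1.17 to 1.27). *Htra4* was scarce, at 3.08 and 1.42 CPM, with a ratio of 0.462 (0.365 to 0.580). Apart from the scarce *Htra4*, only *Htra3*, chosen for its low ratio, was lower by 2-fold or more. In cluster 1 the ratios were 1.06 for *Htra1*, 1.27 for *Htra2*, 0.273 for *Htra3* and 0.278 for *Htra4*. In the mural-like cells they were 0.993, 1.18, 0.338 and 0.602 in the same order.

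Genes on which HtrA proteases are known to act gave a mixed picture. Of the 5 TGF-β family ligands, 4 had 50 UMIs and 2 were lower by 2-fold or more, against 9.01% of all genes. Their median was -0.35. *Tgfb3* was at 23.3 CPM in control and 4.51 CPM in LPS (ratio 0.194, 0.172 to 0.218), and *Bmp4* had a ratio of 0.485 (0.444 to 0.528). *Tgfb1* and *Tgfb2* had ratios of 1.27 and 1.34, and *Gdf5* had 0 UMIs in both libraries, which allows up to 0.0331 CPM in control and 0.0407 CPM in LPS. None of the 5 matrix substrates passed 2-fold (median 0.03), with ratios between 0.742 for *Eln*, elastin, and 1.16 for *Dcn*, decorin. Of 9 TGF-β response genes 2 were lower (*Tgfbi* 0.370 and *Ccn2*, listed as *Ctgf*, 0.448) and 1 higher (*Skil* 3.05), and the median was -0.05. *Postn*, *Acta2*, *Tagln* and *Smad7* lay between 0.898 and 1.10.

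In the family of endosialin, *Cd248* was lower and another member higher. *Clec14a*, a receptor best known from endothelium, was at 9.47 CPM in control and 28.4 CPM in LPS, a ratio of 3.00 (2.77 to 3.25), and *Thbd*, thrombomodulin, was at 5.01 and 2.74 CPM with a ratio of 0.547 (0.461 to 0.647). *Cd93* was not analysed here. With 3 genes measured, 1 was lower and 1 higher by 2-fold, and the median was -0.87. The lower gene is *Cd248* itself, which was chosen for its low ratio and enters this median. Of 6 partners that endosialin is known or thought to bind, only *Col1a2* was lower by 2-fold, at 79.2 and 39.4 CPM (ratio 0.497, 0.476 to 0.519), and the median was -0.14. The ratio was 0.842 for *Col1a1*, 1.03 for fibronectin (*Fn1*), 0.979 for *Col4a1*, 1.25 for *Lgals3bp* and 0.727 for *Mmrn2*.

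In the RANKL system, which Lrrc17 is known to restrain in bone, *Tnfrsf11b* differed most. It encodes osteoprotegerin, the decoy receptor of RANKL, and stood at 50.8 CPM in control and 233 CPM in LPS, a ratio of 4.59 (4.44 to 4.74), opposite in direction to *Lrrc17*. The RANKL gene *Tnfsf11* had 0 UMIs in cluster 0 of both libraries, and its receptor gene *Tnfrsf11a* had 7 and 3 UMIs. The downstream genes *Plcg1* and *Nfatc1* had ratios of 0.729 and 0.810. Of the 3 genes with 50 UMIs, 1 was higher and none lower by 2-fold (median -0.30). *Tnfrsf11b* was also higher in cluster 1 (3.91) and in the mural-like cells (3.00).

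Genes of fibroblast identity were described in the same way. Of 10 fibroblast genes 2 were lower by 2-fold or more, the transcription factor gene *Tcf21* (0.463) and *Col1a2*, and 1 was higher, the receptor gene *Pdgfra* (2.19). The other 7, from *Gsn* (0.668) to *Dcn* (1.16), stayed inside 2-fold. The median was -0.47, against -0.13 over all genes, of which 9.01% were lower by 2-fold or more. The ratios of *Lrrc17*, *Htra3* and *Cd248* were each below that of every gene of this list. But *Lrrc17*, *Htra3* and *Cd248* were chosen for their low ratios in cluster 0, so nothing is read from this order.

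**Figure D5:**
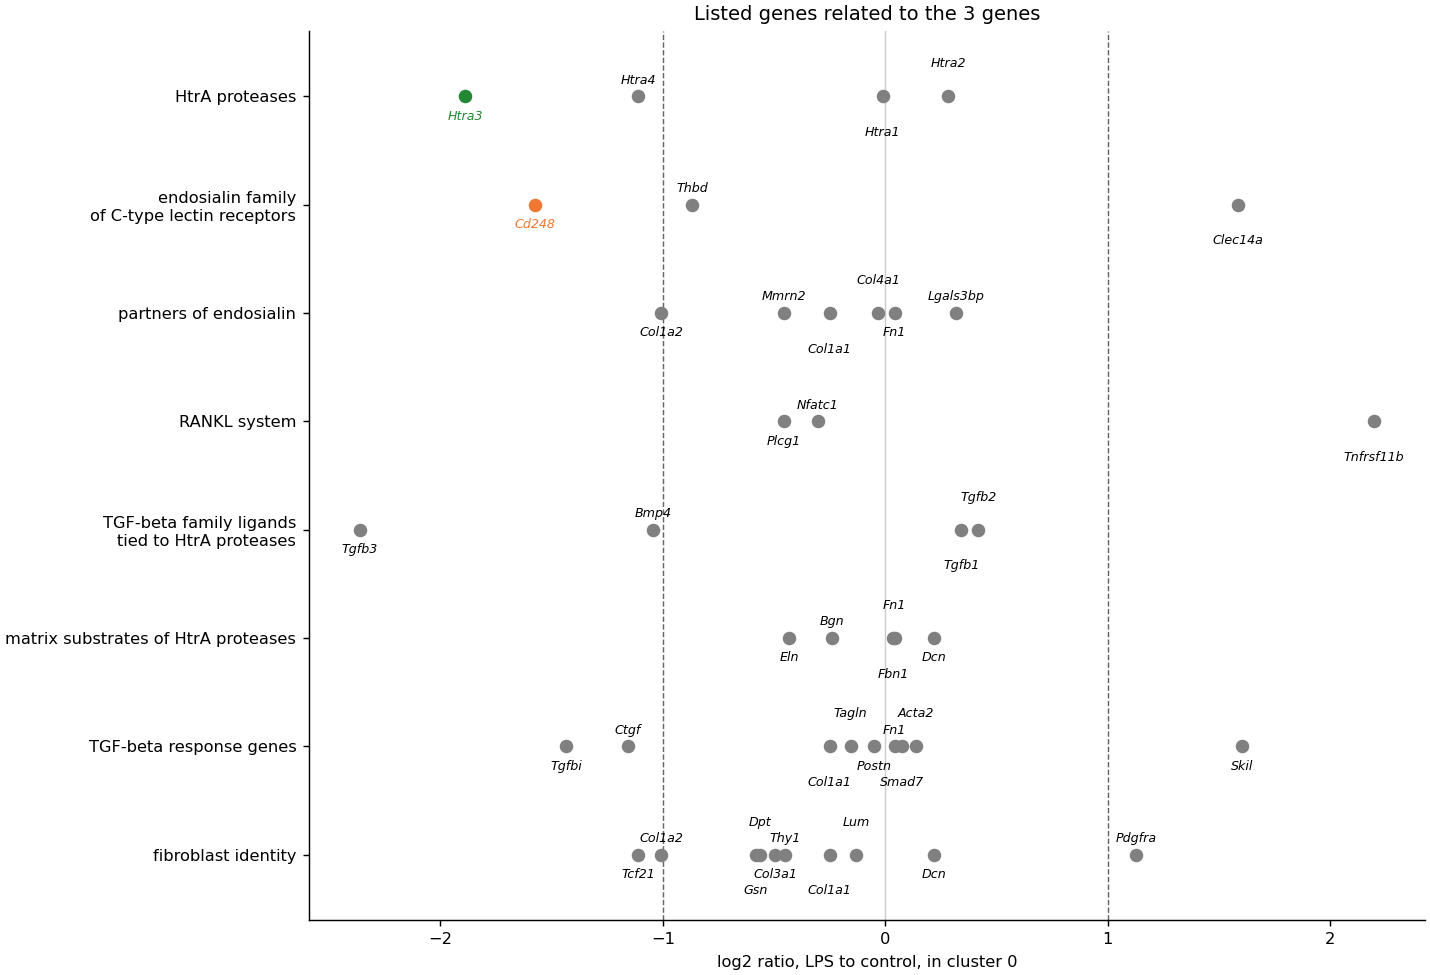
Each row is a list of genes related to the 3 genes or to fibroblasts, and each point is the log2 ratio of LPS to control of a gene with at least 50 UMIs in cluster 0, with dashed lines at 2-fold. *Htra3* (-1.89) stands left of the other HtrA genes and *Cd248* (-1.57) left of its relatives, but both were chosen for low ratios. *Tnfrsf11b*, 4.59-fold higher in LPS, lies farthest to the right.

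The genes with the pattern most like each of the 3 were sought over 20 points, clusters 0 to 9 in both libraries, on log2(CPM + 10) among 9896 genes with at least 500 UMIs. Points of a library share its depth, its free RNA and its treatment, so Pearson's r is given as a description. For *Lrrc17* these were *Islr*, a secreted leucine-rich repeat protein (r = 0.971), *Tpst1* (0.969), *Mrgprf* (0.95), *Vegfd* (0.944) and *Wisp2* (0.943). In cluster 0 *Islr* stood at 40.1 CPM in control and 9.50 CPM in LPS, and *Wisp2* at 124 and 29.8 CPM. Their ratios of LPS to control, 0.237 and 0.241, were the lowest among the genes named here for *Lrrc17*. The ratio was 0.306 for *Tpst1*, 0.327 for *Vegfd* and 0.423 for *Mrgprf*.

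For *Htra3* the most similar genes were *Nthl1*, a DNA repair enzyme (0.938), *Dhrs3*, a retinal reductase (0.921), *Nkd1*, an inhibitor of Wnt signalling (0.904), the carboxypeptidase gene *Cpz* (0.890) and *Islr* (0.887). Their ratios in cluster 0 ran from 0.182 for *Nkd1* to 0.720 for *Nthl1*, which was therefore not lower by 2-fold. For *Cd248* they were *Mrgprf* (0.949), *Gpr153* (0.949), the thrombospondin gene *Thbs2* (0.946), *Aspn*, a small leucine-rich proteoglycan (0.941), and *Dpep1* (0.932), with ratios from 0.333 to 0.535. *Islr* was on the lists of both *Lrrc17* and *Htra3*, and *Mrgprf* on those of both *Lrrc17* and *Cd248*. Among themselves, *Lrrc17* and *Cd248* had r = 0.862, *Lrrc17* and *Htra3* 0.826, and *Htra3* and *Cd248* 0.735. By likeness to *Lrrc17*, *Cd248* was only number 40 and *Htra3* number 66, and by likeness to *Htra3*, *Cd248* was number 151. All 3 were chosen for lower levels in LPS and the points include both libraries, so nothing is read from these values.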

How the data were processed

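Single-cell RNA-seq of 1 control and 1 LPS library was used. The deposited matrices hold the authors' raw UMI counts per gene and cell, without normalization, and a deposited table gives the authors' cluster number and name for each cell. Per the submitters' processing notes, Cell Ranger 2.2.0 and Seurat 2.3.4 were used. The genome build is not given in the sources used here. The 10 cells without a cluster (2 control, 8 LPS) were left out. They held 0 UMIs of the 3 genes.

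*Lrrc17*, *Htra3* and *Cd248* were found by symbol. The members and the gene lists were chosen with earlier results of these data known. UMIs were summed per cluster and library and divided by the total (CPM), with pandas 2.3.3, scipy 1.17.1 and numpy 2.4.6 under Python 3.11.15. Levels carry exact Poisson intervals, ratios exact conditional intervals and shares Clopper-Pearson intervals, all at 95%. For a gene with 0 UMIs, 3 UMIs were taken as the upper limit. Ratios were not given for clusters with under 20 UMIs of a gene. Log2 ratios of all genes had 0.5 UMI added to each sum. Doublets were not called, and 1 alternative dropped the deepest 5% of cells. No filter on cells was applied. With 1 library a condition, no hypothesis was tested. The procedure was tested on simulated counts with planted changes and counting error only. They held no spread between libraries, so that spread was not covered.

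Besides the 3 genes, the genes named were those of 9 lists (HtrA proteases, the endosialin family, partners of endosialin, the RANKL system, TGF-β family ligands, matrix substrates, TGF-β response, fibroblast identity and LPS response), the 5 most alike to each gene, the 10 with the lowest log2 ratio in cluster 0 among those with at least 500 UMIs, and neighbours in that order, which were chosen after their values were seen. In the TGF-β response list 1 gene is not reported here. Other genes named only mark clusters. Alternatives were other scalings, weights, depths, cell filters and classes.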

Additional observations from a re-analysis of the deposited data

How the results depend on the processing

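No paired analysis was possible because 1 library a condition leaves nothing to pair. Under 9 alternatives each, the log2 ratio in cluster 0 stayed below -1 for all 3 genes, between -2.66 and -2.49 for *Lrrc17*, -1.92 and -1.76 for *Htra3*, and -1.61 and -1.44 for *Cd248*. Values left the counting interval of the reported ratio in a few settings. Set against the median of all genes, the ratios were -2.49, -1.76 and -1.44. Over all cells of a library *Lrrc17* was at -2.54 and *Cd248* at -1.51. Over clusters 0, 1 and 7 *Lrrc17* was at -2.50, and over cells with a UMI each of *Col1a1*, *Dcn* and *Pdgfra* at -2.53.

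The differences in the share of cells with a UMI depend on depth by construction. At 3000 UMIs they were -27.7 percentage points for *Lrrc17*, -14.0 for *Htra3* and -18.7 for *Cd248*. At 1500 UMIs they were -16.5, -7.54 and -11.5, at 5000 UMIs -40.7, -21.0 and -26.8, and without thinning -60.2, -41.0 and -42.3. With at least 200 UMIs asked of a gene, fewer genes were tested and 591 were lower by 2-fold or more in cluster 0, against 1103 with 50 and 1507 with 20. Of the genes named as most alike, 4 or 5 of 5 were the same with a pseudocount of 1 CPM or a minimum of 2000 UMIs.

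No setting can stand in for a second library, so the spread between cultures was not measured. Depth limits the clusters with few cells, 8 to 10, and the LPS levels of *Lrrc17* in clusters 3 to 6, which rest on 15 to 49 UMIs.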
